A study of Ovis aries with 2 samples.

Results

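Excitatory neurons of the sheep cerebral cortex that carry transcripts of ABI3BP or COL9A1 were examined in single-nucleus RNA sequencing data. They were chosen by a rule on measured values. A barcode of the pre-processed library was taken as a member when it had at least 2000 unique molecular identifiers (UMIs, each standing for 1 captured transcript), at least 4000 counts per 1000000 UMIs (CPM) of SYT1, and at least 3 UMIs and 1000 CPM of ABI3BP, GUCA1C, COL9A1 and IL20RB summed. It also had to stay under 2000 CPM of NXPH1 and ALK, under 1500 CPM of RELN, THSD7B, VIP and IGF1, and under 1000 CPM of SEMA3E, SYT6, NXPH2 and NPFFR2. These limits are meant to keep out inhibitory and corticothalamic nuclei. The rule found 76 nuclei among 3030 barcodes of both libraries. They made up 6.08% (exact 95% interval 4.82 to 7.56%) of the 1249 pre-processed barcodes that reached 2000 UMIs and 11.5% (9.15 to 14.2%) of the 662 nuclei that passed the SYT1 minimum and all 3 upper limits.

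The study asked how debris and red blood cell removal changes the makeup of cortical nuclei. The animal was an adult female Rambouillet sheep, with an age of 18 to 36 months in the labels, wildtype and without treatment in life, and both libraries carry the same batch label. The pre-processed library came from cortex taken straight to nuclei isolation and the post-processed library from cortex that first went through the removal, although its treatment label repeats that no removal was done, so the direction rests on the titles. With 1 library per condition and 1 animal there is no replicate, nuclei are not replicates, and every interval covers counting error only. Over the listed genes, which are those of sheep chromosomes 1 to 8 and part of chromosome 9, the total came to 9580441 UMIs for the 2125 pre-processed barcodes and 794203 UMIs for the 905 post-processed ones, and no barcode sequence was shared. CPM are relative to the listed genes, and SLC17A7, GAD1 and other genes outside them were not analysed here.

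Excitatory neurons of the cortex release glutamate and differ by layer and by where their axons run. Intratelencephalic neurons project within the cortex and to the striatum, extratelencephalic neurons to the brainstem and spinal cord, and corticothalamic neurons of layer 6 to the thalamus. RORB, a nuclear receptor, marks much of layer 4 in the mouse, while FOXP2, TLE4 and SYT6 mark corticothalamic neurons there. ABI3BP encodes a protein of the extracellular matrix and COL9A1 a chain of collagen IX, best known from cartilage. GUCA1C encodes a calcium-binding activator of guanylate cyclase known from photoreceptors, IL20RB a subunit of receptors for interleukins 19, 20 and 24, and KCNH8 a voltage-gated potassium channel of the ELK family.

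The levels of the 4 summed genes chose the members and are a description. ABI3BP stood at 771 CPM summed over members (699 to 848) and 100.1 CPM in the 586 other excitatory nuclei, which pass the same SYT1 minimum and limits but not the minimum of the 4 genes. GUCA1C stood at 429 and 6.22 CPM, COL9A1 at 405 and 25.7 CPM, and IL20RB at 79.1 and 13.2 CPM. Each gene was spread unevenly over the members. In single members ABI3BP ran from 0 to 2499 CPM with a median of 826, GUCA1C from 0 to 1943 with a median of 155, COL9A1 from 0 to 3099 with a median of 108, and IL20RB from 0 to 597 with a median of 0.

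Nuclei that carried any UMI of a gene numbered 62 for ABI3BP, 40 for GUCA1C, 40 for COL9A1 and 25 for IL20RB. All 25 nuclei with IL20RB also carried ABI3BP. The combinations seen most often were ABI3BP with IL20RB in 15 nuclei, ABI3BP with GUCA1C and COL9A1 in 14, and ABI3BP with GUCA1C in 11. ABI3BP without COL9A1 was found in 36 members, both genes in 26 and COL9A1 without ABI3BP in 14, and no member lacked both. The "ABI3BP only" and "COL9A1 only" nuclei are named here by these UMIs and not by identity, since at this depth a gene can go uncaptured. Median depth was 4998 UMIs in ABI3BP only, 6056 in both and 5188 in COL9A1 only.

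**Figure D1:**
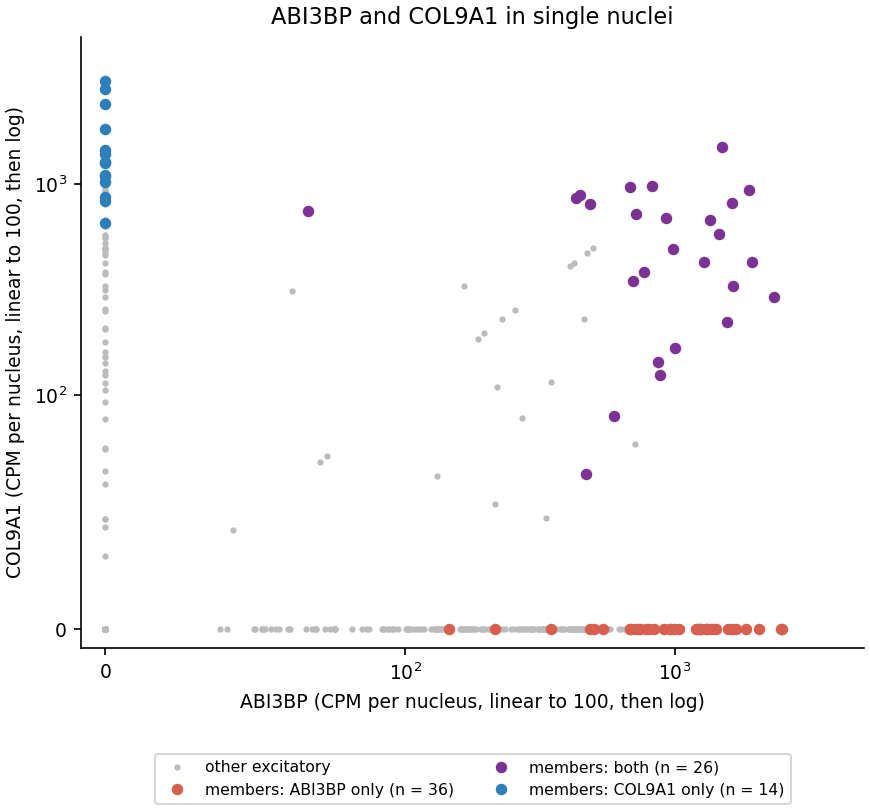
Level of ABI3BP (horizontal) against COL9A1 (vertical) in CPM per nucleus, on axes that are linear up to 100 CPM and logarithmic above. Each point is a nucleus, coloured points are the 36, 26 and 14 members of the 3 kinds and grey points the 586 other excitatory nuclei; members lie along both axes and in the field between them.

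The 4-gene sum ran from 1001 to 3837 CPM with a median of 1555 CPM, on 3 to 57 UMIs with a median of 9. The boundary cut through a continuous range. The members nearest to it had 1001, 1033 and 1040 CPM and the nearest other excitatory nuclei 991, 990.3 and 988 CPM. In all 15 members lay between 1000 and 1200 CPM and 25 other excitatory nuclei between 800 and 1000 CPM, while 311 of the 586 had no UMI of the 4 genes. A further 6 nuclei met the minimum and were kept out by an upper limit, 3 of them by the corticothalamic limit alone, 2 by that on NXPH1 and ALK alone and 1 by several.

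Some of these genes were also found outside the members. COL9A1 stood at 301 CPM (251 to 359) in the 56 corticothalamic-type nuclei, which are those over the limit on SEMA3E, SYT6, NXPH2 and NPFFR2, and 44 of the 56 carried a UMI. ABI3BP was at 21.9 CPM there. The 55 NXPH1/ALK-type nuclei, over the limit on those genes, had ABI3BP at 151 CPM and COL9A1 at 38.2 CPM, and the 30 RELN/VIP-type nuclei had 5.79 and 40.5 CPM. To set free RNA beside these values, each nucleus was thinned to 2000 UMIs. ABI3BP then gave a UMI in 71.1% of members, 18.9% of other excitatory nuclei, 8.93% of 56 oligodendrocyte-type nuclei and 3.18% of 220 astrocyte-type nuclei, at median depths before thinning of 5114, 7004, 2743 and 3395 UMIs. For COL9A1 the shares were 39.5, 5.97, 3.57 and 4.55%. The COL9A1 share of other excitatory nuclei had an interval of 4.20 to 8.21%, which holds that of the astrocyte-type nuclei, while single nuclei among them reached 981 CPM on up to 7 UMIs. How much of it is free RNA was not tested. GUCA1C gave no UMI in the 56 oligodendrocyte-type and 220 astrocyte-type nuclei.

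KCNH8 was named as a marker of this group but was not summed by the rule. It stood at 699 CPM in members (631 to 773), 127 CPM in other excitatory nuclei, 358 CPM in NXPH1/ALK-type, 98.4 CPM in RELN/VIP-type and 9.72 CPM in corticothalamic-type nuclei. The order of the first 3 of these by level was members, NXPH1/ALK-type and other excitatory, with intervals that did not overlap, while RELN/VIP-type at 57.3 to 157 CPM overlapped other excitatory at 117 to 137 CPM. In single members it ran from 0 to 4329 CPM with a median of 404, and 46 of 76 carried a UMI. After thinning the share was 51.3% of members and 13.5% of other excitatory nuclei, the latter within the range of oligodendrocyte-type (12.5%) and astrocyte-type nuclei (17.3%). Within the members it was uneven, at 986 CPM in ABI3BP only, 579 CPM in both and 249 CPM in COL9A1 only.

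**Figure D2:**
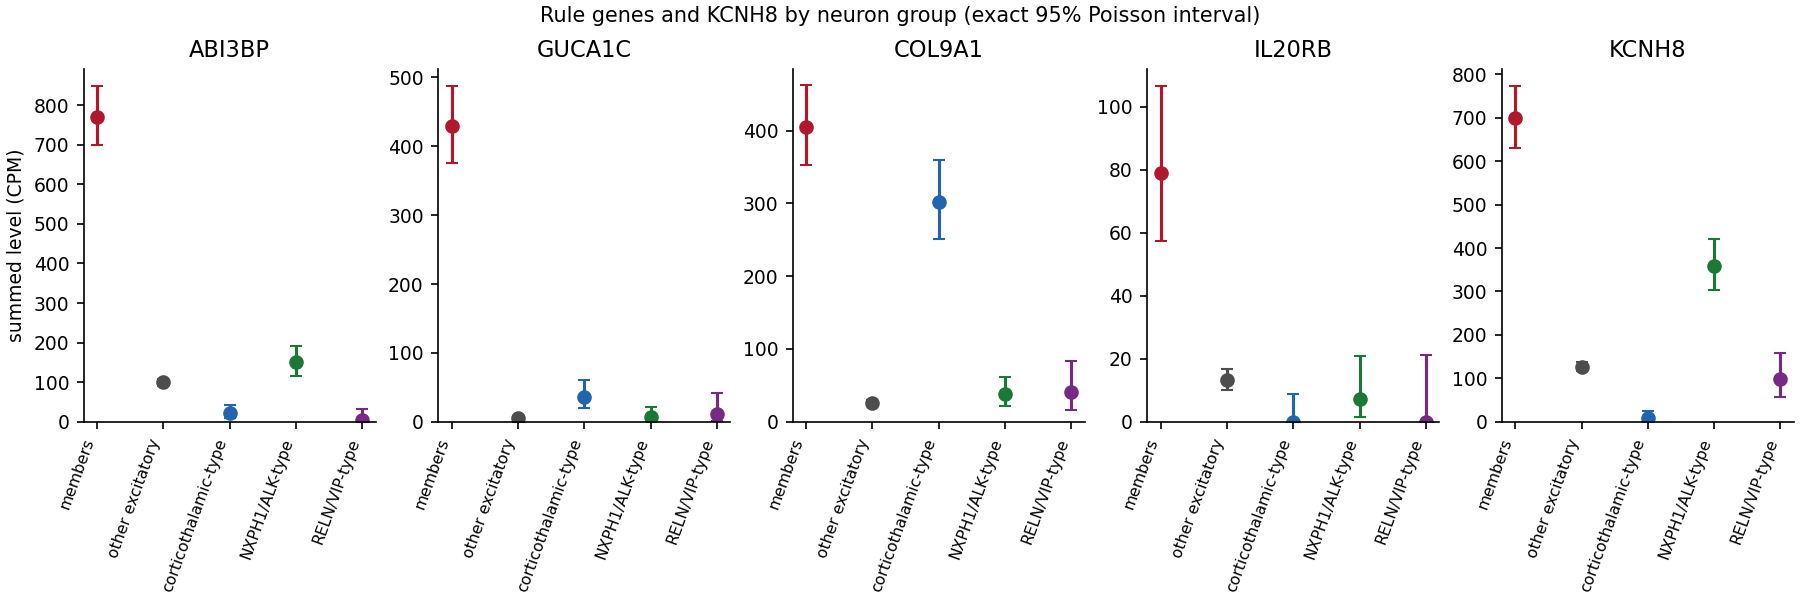
Summed level in CPM (vertical, from 0) of the 4 rule genes and KCNH8 in 5 groups of neurons; points are CPM of all UMIs in a group and bars exact 95% Poisson intervals. COL9A1 is the gene of the rule that is also high in corticothalamic-type nuclei, and KCNH8 is next highest in NXPH1/ALK-type nuclei.

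The excitatory part of the label was checked against markers that the rule did not use. CAMK2A, a kinase of glutamatergic synapses, was at 1227 CPM in members and 1451 CPM in other excitatory nuclei, and 96.1% of thinned members carried a UMI. It was not particular to excitatory nuclei, as NXPH1/ALK-type nuclei had 858 CPM and a share of 65.5%, and oligodendrocyte-type and astrocyte-type nuclei had 461 and 462 CPM and shares of 51.8 and 43.6%. NEUROD6, a transcription factor of excitatory neurons, was at 69.9 and 16.5 CPM. The factors of inhibitory neurons DLX1, DLX2 and LHX6 had 0 UMIs in the 543516 UMIs of the members, where a floor of 3 counts is 5.52 CPM. NXPH1/ALK-type nuclei had UMIs of each of them. LHX6 was also at 0 in RELN/VIP-type nuclei, and all of them were at 0 in corticothalamic-type nuclei. In the inhibitory list 1 member stood at 5761 CPM on 30 UMIs and the next at 2277 CPM, all of them from ERBB4. ABI3BP and COL9A1 are matrix genes, and of the 7 fibroblast genes measured, DCN, LUM, COL3A1, COL6A3 and FBLN1 had 0 UMIs in members and COL1A2 and SLC6A13 were found in 2 of 76 nuclei. A single member had microglial genes at 5086 CPM, with 11 of the 16 microglial UMIs of all members, and C1QB and C1QC were at 0.

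The first comparison set members against the other excitatory nuclei of the same library, over 4456 genes with at least 100 UMIs in both groups summed. CASQ2, a calcium store protein, the growth factor KITLG and part of the layer 4 list were higher, and the transcription factor MEIS2 and parts of the modulator receptor and axon guidance lists were lower. At least 2-fold higher were 108 genes (2.42%) and at least 2-fold lower 244 (5.48%), and the median gene had a log2 ratio of -0.02. Ratios are log2 of member over other CPM with 0.5 counts added, and because no replicate exists, a ratio says how these pools of nuclei differ and carries no p-value.

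CASQ2, calsequestrin, a calcium-storing protein best known from heart muscle, had the highest ratio among the named genes. It was at 171 CPM in members and 6.82 CPM in other excitatory nuclei, a log2 ratio of 4.64 (4.07 to 5.26). After thinning 23.7% of members and 1.37% of other excitatory nuclei carried it. NXPH1/ALK-type nuclei had 139 CPM, so the gene was not confined to the members.

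KITLG, the ligand of the receptor kinase KIT, was at 223 and 23.9 CPM, a log2 ratio of 3.22 (2.84 to 3.60), and was found in 36.8% and 2.73% of thinned nuclei. RORB was at 147 and 26.7 CPM (2.47, 2.05 to 2.87), and TOX, a DNA-binding protein of the HMG box family, at 721 and 136 CPM (2.41, 2.22 to 2.59). Neither was particular to the members. Astrocyte-type nuclei had RORB at 184 CPM and TOX at 1006 CPM, found in 25% and 80.5% of them after thinning, beside 22.4% and 51.3% of members. SLC35F1, of a family of nucleotide sugar carriers, was at 1538 and 334 CPM (2.20, 2.08 to 2.32) and PRR16 at 2127 and 551 CPM (1.95, 1.85 to 2.05). These last 2 genes were found in 86.8% and 88.2% of thinned members, and in 34.3% and 49.0% of other excitatory nuclei. SLC35F1 was higher still in corticothalamic-type nuclei, at 2985 CPM, and stood at 1023 CPM in NXPH1/ALK-type and 1099 CPM in RELN/VIP-type nuclei, whereas PRR16 was at 875, 636 and 521 CPM in these 3 groups.

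The other named genes above 2-fold lay between 1.70 and 2.25 on the log2 scale. They were CXXC4, a zinc finger protein that restrains Wnt signalling (2.25), IFNE, an interferon (2.11), MYO1E, an unconventional myosin (2.09), GPRIN3 (1.85), TMEM163 (1.78), LAMA4, a laminin chain (1.76), CCDC136 (1.75) and HS3ST5, an enzyme that modifies heparan sulphate (1.70). HS3ST5, at 248 CPM in members, stood at 282 CPM in corticothalamic-type, 277 CPM in NXPH1/ALK-type and 324 CPM in RELN/VIP-type nuclei, so it was not higher in members than in these 3 groups. LAMA4, at 241 CPM in members, was at 231 CPM in RELN/VIP-type nuclei. MYO1E, at 142 CPM in members, was at 242 CPM in astrocyte-type and 274 CPM in oligodendrocyte-type nuclei. Not every kind of member shared the named genes. Of the 15 named genes above 2-fold, 8 were past 2-fold in each of the 3 kinds taken alone, namely CASQ2, KITLG, CXXC4, SLC35F1, IFNE, PRR16, GPRIN3 and HS3ST5. The other 7 were past it in 2 kinds. The choice of genes by the ratio of the pooled members favours these counts, since the kinds are parts of that pool.

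RORB, MYO1E, TMEM163, LAMA4 and CCDC136 missed 2-fold in COL9A1 only, where their log2 ratios were 0.50, -1.04, 0.57, 0.18 and -0.25, and KCNH8 lay just under it at 249 against 127 CPM. The 5 ratios rested on 3, 1, 13, 7 and 14 UMIs in 14 nuclei. Intervals of RORB (-2.01 to 1.86), TMEM163 (-0.40 to 1.31) and LAMA4 (-1.24 to 1.14) still held 2-fold higher. Those of MYO1E (-6.93 to 0.88) and CCDC136 (-1.17 to 0.46) did not. TOX ran the other way across the kinds. Its log2 ratio was -0.72 in ABI3BP only, 2.86 in both and 3.68 in COL9A1 only. When ABI3BP was left out of the 4-gene sum, 34 members remained, and CCDC136 (-0.12), MYO1E (0.39) and LAMA4 (0.92) were no longer past 2-fold.

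**Figure D3:**
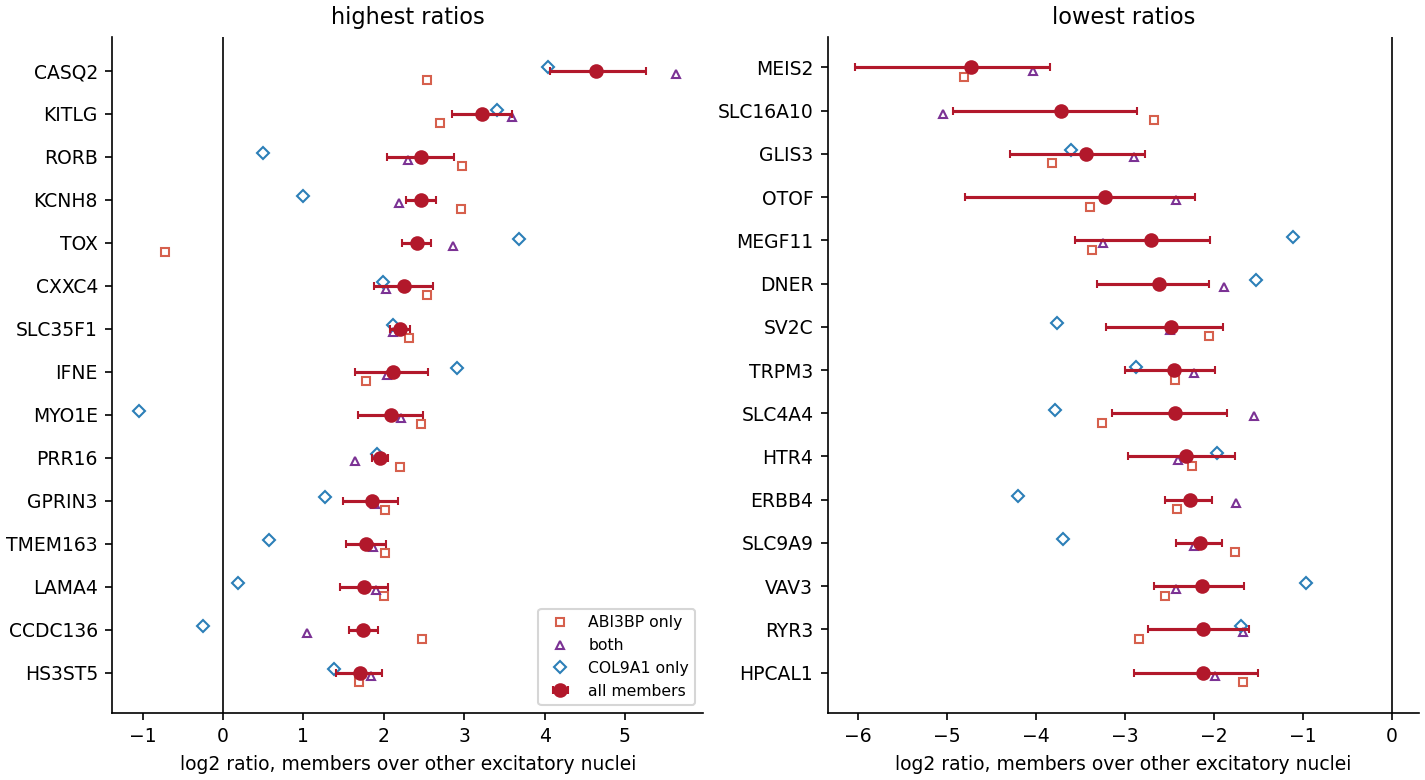
Log2 ratio of members over other excitatory nuclei (horizontal) for the 15 named genes above and the 15 below 2-fold; filled points and bars are all 76 members with the exact 95% interval, open symbols the 3 kinds taken alone. Kinds with 0 UMIs of a gene have no symbol. TOX separates ABI3BP only from the other kinds. RORB, KCNH8, MYO1E, TMEM163, LAMA4 and CCDC136 are lowest in COL9A1 only, on 1 to 23 UMIs each in that kind.

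MEIS2, a homeodomain transcription factor, had the lowest ratio of the named genes, at 14.7 CPM in members and 416 CPM in other excitatory nuclei, a log2 ratio of -4.73 (-6.04 to -3.84). It was found in 3.95% of thinned members and 44.4% of other excitatory nuclei. SLC16A10, a transporter of aromatic amino acids, was at 16.6 and 230.1 CPM (-3.72), GLIS3, a zinc finger factor, at 29.4 and 329 CPM (-3.44), and OTOF, a calcium sensor of vesicle release in hair cells, at 11.0 and 112 CPM (-3.23). SLC9A9, an exchanger of endosomes, was at 234 and 1048 CPM (-2.16) and was found in 22.4% and 71.8% of thinned nuclei.

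Further down stood MEGF11 (-2.71), DNER, a Notch-related surface protein (-2.62), the synaptic vesicle protein SV2C (-2.48), the cation channel TRPM3 (-2.45), the bicarbonate transporter SLC4A4 (-2.43), the serotonin receptor HTR4 (-2.31), VAV3 (-2.13), the calcium release channel RYR3 (-2.12) and the calcium sensor HPCAL1 (-2.12). Of the 15 named genes below 2-fold, 14 were past it in each kind of member, and VAV3 missed it in COL9A1 only at -0.97. The choice of genes by the ratio of the pooled members favours this count, since the kinds are parts of that pool. MEIS2, SLC16A10, OTOF and HPCAL1 had 0 UMIs in COL9A1 only. ERBB4, the neuregulin receptor, had a log2 ratio of -2.27, with 226 CPM in members and 1097 CPM in other excitatory nuclei. That ratio rested on few nuclei, since without other excitatory nuclei at or over 3000 CPM of ERBB4, which left 550 of 586, it was -0.08. Single other excitatory nuclei reached 54003 CPM of ERBB4, above the 18586 CPM summed over NXPH1/ALK-type nuclei. Whether such nuclei are inhibitory was not tested. Against the 550 nuclei, 103 genes were at least 2-fold higher in members and 220 lower.

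Several of the lower genes are also genes of astrocytes. The astrocyte list, 9 genes with none at 0, summed to 254 CPM in members and 644 CPM in other excitatory nuclei, with per-nucleus ranges of 0 to 2129 and 0 to 7605 CPM and medians of 201 and 473 CPM. Of its 7 tested genes SLC4A4, RFX4, RYR3 and GLI3 were at least 2-fold lower in members, beside 5.48% of all genes. RYR3 did not mark astrocytes in these data, being at 63.8 CPM in astrocyte-type nuclei, and it made up 229 of the 644 CPM in other excitatory nuclei. SLC4A4 was at 2879 CPM in astrocyte-type nuclei, but SLC4A4 and RYR3 are among the genes that chose those nuclei, so this level is a description. Nuclei of either group with a UMI of GJA1, NTSR2, MLC1, BMPR1B, RFX4 or GLI3 were then left out. In the 43 members and 345 other excitatory nuclei that remained, the log2 ratio was -5.56 for MEIS2, -3.77 for GLIS3, -3.99 for SLC4A4, -2.01 for RYR3, -1.94 for TRPM3 and -1.57 for DNER.

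Members were then read against lists of layer and projection markers, which were chosen with earlier results of these data known. The layer 4 intratelencephalic list had a median log2 ratio of 0.76 beside -0.02 over all genes. Of its 6 tested genes 3 were past 2-fold, all higher, beside 2.42% higher over all genes. These were RORB, KCNH8 and THSD7A, the last at 2059 and 986 CPM (1.06, 0.97 to 1.16). CLSTN2, a calsyntenin, stood at 1545 and 1520 CPM, PHACTR2 at 114 and 83.7 CPM and GABRG1 at 31.3 and 32.5 CPM. KCNH8 was given as a marker of the group beforehand, so it adds nothing independent to that count or to the median, which includes it. By kind, THSD7A was at 2711 CPM in ABI3BP only, 2030 CPM in both and 465 CPM in COL9A1 only, and RORB at 208, 130 and 32.5 CPM. RORB was also at 184 CPM in astrocyte-type nuclei.

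The counts of the next lists stand beside 2.42% higher and 5.48% lower over all genes. The claustrum and deep intratelencephalic list had 8 tested genes and a median of -0.75. GNB4, at 46.0 and 16.5 CPM, and the transcription factor ETV1 (1.69), also a layer 5 marker in the mouse, were higher, and OPRK1 (-2.24), GNG2 (-1.33), B3GAT2 (-2.12) and RGS12 (-1.62) were lower. In the upper layer list COL5A2 was higher (1.39) and SERPINE2 lower (-2.20) among 4 tested genes. Of 3 tested near-projecting genes TRPM3 was lower, of 3 tested corticothalamic genes ADAMTSL1 was lower (-1.05), and the 2 tested genes of the extratelencephalic list and the 2 of the layer 6b list did not pass 2-fold. FOXP2 was at 62.6 CPM in members, 62.2 CPM in other excitatory nuclei and 1147 CPM in corticothalamic-type nuclei.

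Lists of surface and matrix proteins moved in part. In the collagen list, without COL9A1, COL24A1 (1.30), COL11A1 (1.43) and COL5A2 (1.39) were higher and COL4A4 lower (-2.67) among 10 tested. Over all genes 2.42% were higher and 5.48% lower. The 3 higher collagens were carried by different kinds of members. COL24A1 was at 59.5, 121 and 401 CPM and COL11A1 at 25.5, 162 and 444 CPM in ABI3BP only, both and COL9A1 only, while COL5A2 was at 259, 51.0 and 0 CPM. Of 11 matrix and perineuronal net genes LAMA4 was higher and LAMB1 lower, at 3.68 and 66.0 CPM (-3.85).

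Receptors and channels were read beside the 2.42% higher and 5.48% lower over all genes. Modulator receptors stood above that share, with 5 of 9 genes lower. Among 11 glutamate receptor genes the kainate receptor subunit GRIK3 (1.32) and the NMDA receptor subunit GRIN3A (1.07) were higher and none was lower. Of 9 modulator receptor genes the muscarinic receptor CHRM2 was higher at 256 and 119 CPM (1.11), and HTR4, the muscarinic receptor CHRM5, the adrenergic receptor ADRA1B, the opioid receptor OPRK1 and the cannabinoid receptor CNR1 were lower. ADRA1B had 0 UMIs in members and 21.7 CPM in other excitatory nuclei. Among 22 potassium channel genes KCNH8 and KCNH5 (1.60) were higher and KCND3, at 447 and 896 CPM, KCNG3 (-3.86) and KCNN3 (-1.46) lower. GABRA2, a subunit of the GABA-A receptor, was the 1 of 9 inhibitory receptor genes past 2-fold, at 309 and 674 CPM (-1.12).

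Of 23 axon guidance genes 3 were higher and 6 lower, beside 2.42% and 5.48% over all genes. NTNG1, netrin G1, which binds partners across the synapse, was at 878 and 286 CPM (1.62, 1.47 to 1.77), and EFNA5 (1.13), an ephrin, and EPHB1 (1.12), an ephrin receptor, were also higher. ROBO1, a receptor for SLIT proteins, was at 592 and 2249 CPM (-1.92, -2.09 to -1.77), with EPHA6 (-1.65), EPHA3 (-1.22), SEMA3A (-2.03), NRP2 (-4.67) and RGMB (-1.49). Of 29 transcription regulators RORA was higher at 9267 and 4144 CPM (1.16), with RORB, ETV1 and TOX, and NFIA was lower at 201 and 476 CPM (-1.24), with MEIS2, PBX3 and ZNF804A. The 8 tested pan-neuronal genes and the 5 tested class II cytokine receptor genes did not pass 2-fold in either direction, IL20RB set aside. Immediate early genes were split, with ARC (1.83), NR4A1 (1.04) and IER2 (1.07) higher and NR4A3 lower (-1.83) among 8 tested, on 17 to 73 UMIs each in members.

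The same member pools were set against the 3 groups of neurons kept out by the limits, which share the members, so their lists of genes are not independent. Against corticothalamic-type nuclei 103 of 1613 genes were at least 2-fold higher (6.39%) and 94 lower (5.83%). SLIT2, a guidance ligand, was at 1667 and 177 CPM (3.22), THSD7A at 2059 and 231 CPM (3.15) and MEF2C at 3571 and 1310 CPM (1.45). MEGF11 was at 29.4 and 1111 CPM (-5.19), NFIA at 201 and 1172 CPM (-2.54) and GRM3, a metabotropic glutamate receptor, at 620 and 1451 CPM (-1.23). Against NXPH1/ALK-type nuclei 158 of 1674 genes were higher (9.44%) and 139 lower (8.3%), and against RELN/VIP-type nuclei 156 of 1278 (12.2%) and 110 (8.61%), where the median gene was at 0.11. The excitatory genes KCNIP4 and LDB2 were higher in members than in both of these groups. The potassium channel KCNC2 was at 230 CPM in members, 4705 CPM in NXPH1/ALK-type and 2951 CPM in RELN/VIP-type nuclei, and ERBB4 at 226, 18586 and 33224 CPM.

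The second comparison was within the members, ABI3BP only against COL9A1 only, over 1173 genes with at least 50 UMIs in both. A share of 7.16% was at least 2-fold higher in ABI3BP only, which is 84 genes, and 6.82%, or 80 genes, in COL9A1 only. Nuclei with both genes differed at 3.33% of 1531 genes from ABI3BP only and at 9.01% of 1143 genes from COL9A1 only. These groups are small, 36, 26 and 14 nuclei, and the genes named next were chosen after their values were seen, as the 10 with the largest ratio each way that 30% or more of thinned nuclei carried.

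A pair of kainate receptor subunits differed in opposite directions. GRIK1 was at 2379 CPM in ABI3BP only (2186 to 2585), 1701 CPM in both and 119 CPM in COL9A1 only (59.4 to 213), and single nuclei had medians of 2331, 2033 and 0 CPM. GRIK3 ran the other way, at 97.7, 278 and 1158 CPM. It was found in 4 of 36 thinned ABI3BP only nuclei and 12 of 14 thinned COL9A1 only nuclei. Other excitatory nuclei had GRIK1 at 1629 and GRIK3 at 141 CPM, and corticothalamic-type nuclei had 348 and 1461 CPM.

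Among the remaining genes higher in ABI3BP only, NTNG1 was at 1270 CPM in ABI3BP only, 788 CPM in both and 86.6 CPM in COL9A1 only. KCTD8 and KCTD16, auxiliary subunits of the GABA-B receptor, were at 731 and 1954 CPM in ABI3BP only and at 21.7 and 184 CPM in COL9A1 only. Other excitatory nuclei had 763 and 2540 CPM of them, so against that group they were low in COL9A1 only and not raised in ABI3BP only. BMPER, a secreted protein that binds bone morphogenetic proteins, was at 323 CPM and COL5A2, a chain of collagen V, at 259 CPM, and both had 0 UMIs in COL9A1 only, so that they were at least 9.94-fold and 7.98-fold higher against a floor of 3 counts over that group. FREM1, another matrix protein, SH3RF2, the potassium channel KCNH5 and the phosphodiesterase PDE8B had log2 ratios between 3.39 and 4.12.

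TOX led the genes higher in COL9A1 only that were found in every such nucleus, at 1743 CPM against 80.7 CPM, and single COL9A1 only nuclei had a median of 1187 CPM. PDE1A, a calcium-dependent phosphodiesterase, was at 3248 CPM and 446 CPM and was likewise found in 14 of 14 thinned nuclei. COL25A1, a transmembrane collagen, was at 1256 and 153 CPM, and GALNT14, an enzyme that starts O-linked glycans, at 909 and 46.7 CPM. C1QTNF7, a secreted protein with a C1q domain, was at 1072 CPM on 99 UMIs in 7 of 14 nuclei, the highest of which had 4993 CPM, and had 1 UMI in ABI3BP only, a log2 ratio of -7.40 (-13.3 to -5.47). PHLDB2, ST3GAL1, CALD1 and SEMA5B had log2 ratios between -4.16 and -3.46.

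**Figure D4:**
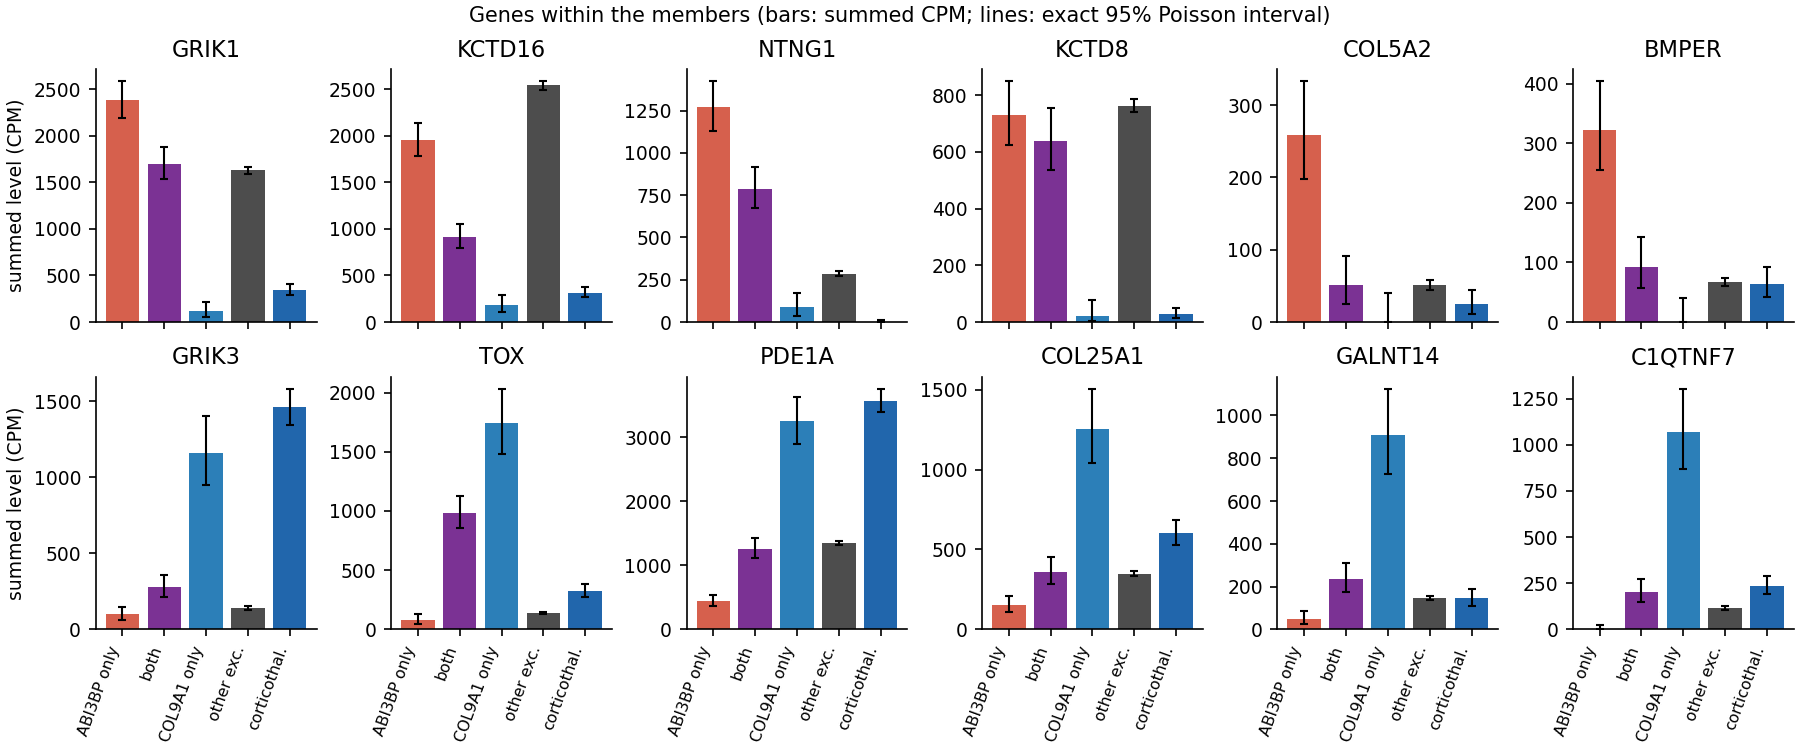
Summed level in CPM (vertical, from 0) of 12 of the 20 genes named within the members, in the 3 kinds of members, the other excitatory nuclei and the corticothalamic-type nuclei; bars are summed CPM and lines exact 95% Poisson intervals. The upper row is lowest in COL9A1 only among the 3 kinds and the lower row highest, as the choice of these genes fixes for ABI3BP only against COL9A1 only.

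In nuclei with both ABI3BP and COL9A1, KCNH5 was at 338 CPM, beside 229 CPM in ABI3BP only and 10.8 CPM in COL9A1 only. CASQ2 was higher there, at 343 CPM, than in ABI3BP only at 38.2 CPM (17.5 to 72.6) or COL9A1 only at 108 CPM (51.9 to 199). Corticothalamic-type nuclei were closer to COL9A1 only than to ABI3BP only at 15 of the 20 genes, and other excitatory nuclei closer to ABI3BP only at 14, on the log2 scale with 5 CPM added. The 20 genes were picked for the largest ratios, and no share over all 1173 tested genes stands beside these counts. They therefore describe these genes alone and do not show that a kind is like another group. CLSTN2, of the layer 4 list, was at 896, 1256 and 3875 CPM in the 3 kinds and 4234 CPM in corticothalamic-type nuclei. The glutamate receptor GRM3 was at 365, 626, 1256 and 1451 CPM. Corticothalamic-type nuclei were thus closer to COL9A1 only at both genes, which were named after their values were seen. TLE4, a corticothalamic marker, went the other way. Its log2 ratio of ABI3BP only over COL9A1 only was 1.20, and it was at least 2-fold lower in members than in corticothalamic-type nuclei. Other corticothalamic markers, FOXP2, SEMA3E, SYT6 and NPFFR2, were low or at 0 UMIs in COL9A1 only. FOXP2 was at 75.8 CPM in COL9A1 only, and SEMA3E, SYT6 and NPFFR2 had 0 UMIs there, which the rule favours by its limit, while NXPH2, of the same limit, was at 444 CPM in COL9A1 only and 4.25 CPM in ABI3BP only.

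The third question was whether genes outside the rule group the members. For each of the 851 nuclei that passed the SYT1 minimum, the 20 nearest neighbours were found from 2000 variable genes without any gene of the rule. Members made up 8.93% of those nuclei and 48.8% of the neighbours of members. They made up 5.25% of the neighbours of other excitatory nuclei, 5.89% for corticothalamic-type, 1.64% for NXPH1/ALK-type and 1.17% for RELN/VIP-type nuclei. Single members ran from 0 to 90%, with a median of 52.5%, and 42 of 76 had at least 50% members around them while 3 had none.

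By kind, members made up 46.25% of the neighbours of ABI3BP only, 54.6% of those of both and 44.6% of those of COL9A1 only. Other excitatory nuclei made up 52.8, 40.4 and 40.4%, beside 68.9% of all nuclei. Of the neighbours of ABI3BP only nuclei, 30% were ABI3BP only, 15.3% had both and 0.972% were COL9A1 only, beside shares in all nuclei of 4.23, 3.06 and 1.65%. Around COL9A1 only nuclei, 25.4% were COL9A1 only, 14.3% had both, 5% were ABI3BP only and 14.6% were corticothalamic-type, whose share in all nuclei was 6.58%. Nuclei with both genes had 25.2% ABI3BP only, 22.5% both and 6.92% COL9A1 only around them. Among other excitatory nuclei, 18 had members as at least 50% of their neighbours. All 18 carried a UMI of the 4 genes, with a median sum of 689 CPM, and their KCNH8 stood at 1009 CPM summed. KCNH8 is not a gene of the rule and was not left out of the neighbour search, so its level there is a description.

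**Figure D5:**
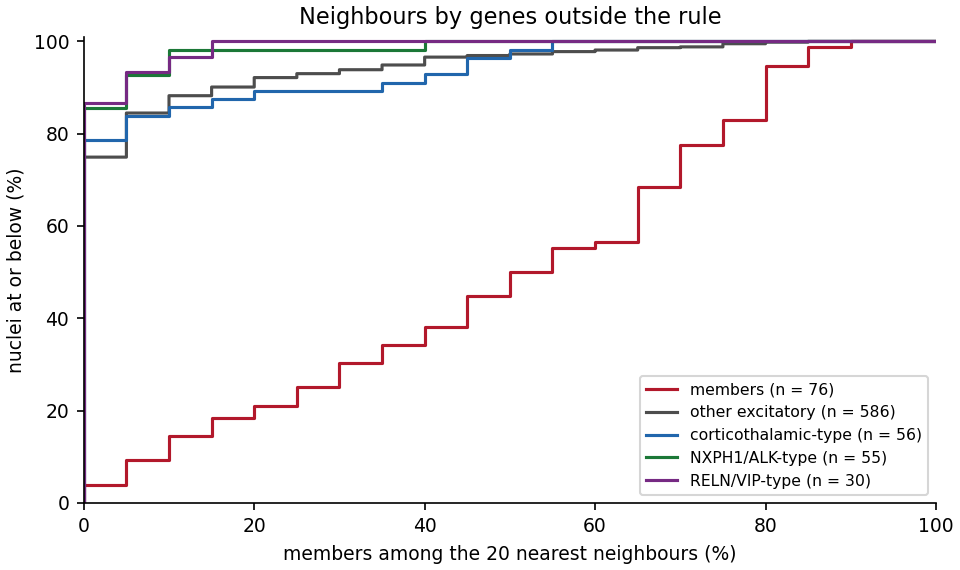
Share of nuclei (vertical, %) whose 20 nearest neighbours hold at most a given share of members (horizontal, %), for members and 4 other groups of neurons, with genes of the rule left out. The curve of members runs far to the right of the others, with 42 of 76 at or over 50% and 3 at 0.

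The post-processed library held none of these nuclei. Of its 120 barcodes with at least 2000 UMIs none passed the SYT1 minimum and none was a member, which allows a share of up to 2.5%. Over all its barcodes it had 19 UMIs of ABI3BP, 23 of COL9A1, 24 of KCNH8, 1 of IL20RB and 0 of GUCA1C, and 40 of SYT1. GUCA1C stood at 31.4 CPM over all pre-processed barcodes and was at least 8.32-fold lower in the post-processed library against a floor of 3 counts. Of the GUCA1C UMIs of the pre-processed library 77.4% lay in the 76 members, beside 36.1% of those of ABI3BP, 32.6% of COL9A1, 28.9% of IL20RB and 8.80% of SYT1. With 1 library each, the handling and the library cannot be told apart.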

How the data were processed

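The authors deposited, per the files, 1 sparse matrix per library with raw whole-number UMI counts per gene and barcode and no normalization. Per the submitters' processing notes DRAGEN was used, and the series description names Seurat for later steps. Its version, the genome build, annotation, strand setting and barcode calling rule were not given in the sources used here. Hence coordinates are left out, and reads of overlapping genes cannot be told apart. All 12652 symbols of the 13765 features matched the RefSeq table of the ARS-UI_Ramb_v3.0 assembly, and no sequence is printed.

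Members and lists were chosen with earlier results of these data known. UMIs were summed per group. CPM carry exact Poisson intervals, shares exact Clopper-Pearson intervals, and log2 ratios (0.5 counts added, genes with at least 100 UMIs over both groups, or 50 within the members) exact conditional binomial intervals, all at 95% and for counting error only. With 1 library per condition no test was run, and called means past 2-fold. Shares of nuclei with a UMI follow thinning of each nucleus to 2000 UMIs, which left out none, since every nucleus had at least as many. Oligodendrocyte-type and astrocyte-type nuclei had SYT1 under 2000 CPM and at least 3 UMIs and 1500 CPM of their markers summed. These were UGT8, ERMN, ENPP2 and ST18 for oligodendrocytes, and SLC4A4, GJA1, RFX4, BMPR1B and RYR3 for astrocytes. Neighbours came from log-normalized values of 2000 variable genes and 20 principal components. The genes named are those given with the group and its rule, the members of the layer lists, and the 15 highest and 15 lowest log2 ratios against other excitatory nuclei that at least 20% of thinned nuclei of the higher group carried. Other genes of the lists were named after their values were seen. No doublet caller was run, and an alternative left out nuclei over 3 times the median UMIs. The ratio and its interval were tested on simulated counts. Computations used Python 3.11.15, numpy 2.4.6, scipy 1.17.1, pandas 2.3.3 and scikit-learn 1.9.0. Alternatives covered depth, every threshold of the rule, each gene of the sum, the gene filter, the added count, scaling, thinning and the neighbour settings.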

Additional observations from a re-analysis of the deposited data

Results flagged for a closer look

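A signal appeared in barcodes that the comparisons leave out. Of the 876 pre-processed barcodes under 2000 UMIs, 18 passed the rest of the rule, or 2.05% (exact 95% interval 1.22 to 3.23%). They had 1302 to 1962 UMIs with a median of 1756. At that depth 3 UMIs of the 4 genes already exceed 1000 CPM, so the UMI minimum alone decided, and the share is not comparable with that of deeper nuclei. KCNH8 was at 558 CPM, beside 699 CPM in members, PRR16 at 2297 beside 2127 CPM and SLC35F1 at 1247 beside 1538 CPM, and MEIS2 had 0 UMIs in their 30472 UMIs.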

How the results depend on the processing

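No paired analysis was possible because each condition has 1 library and no test was run. Depth limits the low genes, as a member carried a median of 9 UMIs of the 4 rule genes. The number of members was 121 with a 4-gene sum of at least 500 CPM, 22 with 2000 CPM and 34 without ABI3BP in the sum, and stayed within 1.5 times 76 under the other alternatives. Genes at least 2-fold higher in members numbered 248 with 2000 CPM, 217 and 52 with a minimum of 30 and 300 UMIs, 4624 with no minimum, where genes with no or few UMIs pass by the 0.5 counts added, and 55 after thinning. Genes at least 2-fold lower numbered 513 with 2000 CPM, 377 without ABI3BP in the sum, 518, 107 and 871 with 30, 300 and no minimum, and 113 after thinning. A higher minimum and thinning leave fewer genes to test. For the other changed counts the cause was not tested. Members made up 17.3% of the neighbours of members with 2000 CPM and 31.6% without ABI3BP, where they were 22 and 34 of the 851 nuclei. Between ABI3BP only and COL9A1 only, 43 and 38 genes passed in each direction with a minimum of 100 UMIs, and 33 and 14 after thinning. Of 720 values of the 30 named genes over 24 alternatives, 103 moved beyond the counting interval of the reported ratio. In all 714 stayed past 2-fold, which the choice of genes by ratio favours, and 1 turned direction, CCDC136 at -0.12 without ABI3BP in the sum. The others under 2-fold were CCDC136 with 2000 CPM (0.89), MYO1E (0.39) and LAMA4 (0.92) without ABI3BP, and ERBB4 with the upper limits set to 50% (-0.69) and without comparison nuclei at or over 3000 CPM of it (-0.08). All 120 values of the 20 genes named within the members, likewise chosen by ratio, stayed past 2-fold, and 15 moved beyond their interval. The alternatives that leave out comparison nuclei, those on the kinds of members and the setting without astrocyte marker nuclei were chosen after seeing the data.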

Other observations

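MORC1, a germline gene that lies next to GUCA1C in the RefSeq table of the sheep genome without overlapping it, was the 1 gene among the 2 listed on either side of each rule gene and of KCNH8 that was past 2-fold higher in members with counts to measure. It had 29 UMIs in 15 of 76 members, 53.4 CPM, and 17 UMIs in 16 of 586 other excitatory nuclei, 3.41 CPM, a log2 ratio of 3.95 (3.06 to 4.92). The kinds of members were unlike, with 76.5 CPM in ABI3BP only, 51.0 CPM in both and 0 UMIs in COL9A1 only, where a floor of 3 counts is 32.5 CPM. Whether GUCA1C and MORC1 keep to the same nuclei cannot be told at these counts. MORC1 was found in 8 of 40 members with a GUCA1C UMI, at 44.0 CPM, and in 7 of 36 without, at 69.2 CPM, and GUCA1C stood at 303 CPM in COL9A1 only. Whether reads of one gene were counted to the other was not tested.

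On the other side of GUCA1C, LOC101116441 had 4 UMIs in members (-1.53, -3.60 to -0.30). COL19A1, next to COL9A1, was at 123 CPM in members and 183 CPM in other excitatory nuclei (-0.56, -0.95 to -0.21), and SATB1, next to KCNH8, at 670 and 418 CPM (0.68, 0.51 to 0.84). TFG and IMPG2, beside ABI3BP, had log2 ratios of -0.56 and -0.41, and NCK1, beside IL20RB, 0.10.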
